A study of Mus musculus with 18 samples.

Results

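The effect of Cre gesicles was examined in mouse tail tendon fibroblasts (TFs) kept for 4 days in 20% O2. Members were chosen by the sample titles: 3 libraries of Ctrl TFs given Cre gesicles and 3 libraries of Ctrl TFs without them, 6 of the 18 libraries of the series. Gesicles are membrane vesicles shed by packaging cells, here carrying Cre recombinase, an enzyme that recombines DNA between loxP sites. The labels give the genotype of both groups as wild-type. In the study's text, Ctrl TFs came from Cre-negative littermates of mice in which a *Scleraxis*-driven Cre deletes *Hif1a*. Its methods give Cre-negative Ctrl mice as homozygous for floxed *Hif1a*, that is, flanked by loxP sites. The study's text does not describe the gesicle libraries, and the labels name no floxed allele. The TFs had crawled out of tail tendons in collagen gels and grew in medium with 10% serum per the labels, while the study's methods give a lower share. The labels name no mock treatment and no dose of gesicles, so effects of Cre and of the vesicle that carried it cannot be told apart. The comparison asks which RNAs differed after a treatment meant to lower *Hif1a* in culture, in parallel to the knockout mice.

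Interferons are secreted proteins that cells release after sensing foreign nucleic acid. Their receptors signal to transcription factors that bind interferon-stimulated response elements (ISREs) at interferon-stimulated genes, many of whose products restrict viruses. Interferons also raise MHC class I antigen presentation, in which the immunoproteasome cuts proteins to peptides, the TAP transporter carries these into the endoplasmic reticulum, tapasin helps load them, and a heavy chain with beta-2-microglobulin displays them on the cell surface.

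Promoter sequence is given because interferon-stimulated genes and class I genes had the highest median differences of all lists examined and are textbook carriers of the ISRE. Each line holds 200 bases of RefSeq sequence (GRCm38.p6) before the start site, 5′ to 3′ on the gene's strand. Capitals mark matches, on either strand, to the ISRE core, which was searched as GAAA, any 2 bases and GAAA. *Isg15*, *Bst2* and *Ifit3* stand for interferon-stimulated genes, *B2m* and *H2-T23* for class I genes with a match, and *H2-D1* for the class I genes that passed the test.
*Isg15* (chr4:156200819-156201018, - strand): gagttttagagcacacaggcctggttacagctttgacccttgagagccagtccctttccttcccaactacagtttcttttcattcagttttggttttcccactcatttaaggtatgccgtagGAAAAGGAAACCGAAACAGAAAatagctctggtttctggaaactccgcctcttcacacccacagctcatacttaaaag
*Bst2* (chr8:71537473-71537672, - strand): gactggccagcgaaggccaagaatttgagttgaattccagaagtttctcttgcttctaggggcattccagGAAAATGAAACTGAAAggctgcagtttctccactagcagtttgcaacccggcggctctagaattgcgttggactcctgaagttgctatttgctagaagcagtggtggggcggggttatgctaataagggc
*Ifit3* (chr19:34583329-34583528, + strand): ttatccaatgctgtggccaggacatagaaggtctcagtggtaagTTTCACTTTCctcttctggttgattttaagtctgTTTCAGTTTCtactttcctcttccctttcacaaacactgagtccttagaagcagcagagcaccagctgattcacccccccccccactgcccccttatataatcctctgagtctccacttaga
*B2m* (chr2:122147487-122147686, + strand): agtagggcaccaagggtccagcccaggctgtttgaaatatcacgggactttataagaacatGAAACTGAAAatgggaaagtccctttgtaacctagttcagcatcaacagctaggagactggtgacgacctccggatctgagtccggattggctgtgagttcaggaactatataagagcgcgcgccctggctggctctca
*H2-T23* (chr17:36032702-36032901, - strand): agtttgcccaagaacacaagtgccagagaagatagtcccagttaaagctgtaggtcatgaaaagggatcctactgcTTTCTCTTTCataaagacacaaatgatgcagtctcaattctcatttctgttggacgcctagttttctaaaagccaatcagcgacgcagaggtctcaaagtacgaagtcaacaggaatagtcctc
*H2-D1* (chr17:35262894-35263093, + strand): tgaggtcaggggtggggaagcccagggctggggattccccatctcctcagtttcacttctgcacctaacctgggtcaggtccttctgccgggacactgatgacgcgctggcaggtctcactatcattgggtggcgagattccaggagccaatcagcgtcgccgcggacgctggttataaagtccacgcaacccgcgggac
In windows of 300 bases around the start sites, the core was in 16 of 29 windows of interferon-stimulated genes (55.2%), 3 of 15 windows of class I genes (20.0%) and 3.44% of all 32851 windows. HIF target genes held it in 1 of 32 windows (3.12%). The letters were not in the 4 windows matched to *H2-K1*, *H2-D1* and *Tapbp*. The core of the GAS element, searched as TTC, any 3 bases and GAA, was in 20.7% of windows of interferon-stimulated genes, 6.67% of class I windows and 8.3% of all windows. RefSeq windows were matched for 26 of 36 interferon-stimulated genes and 14 of 16 class I genes. A match describes the letters and is not a bound site. Only the exact core was searched, so the lack of a match does not show that an ISRE is absent.

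Depth moved with the treatment. Totals ran from 32579711 to 37298897 counts in Ctrl and from 44011967 to 51806453 counts in gesicle libraries. The part of depth in the results was examined by thinning every deeper library of the series to 32579711 counts. That left 3 genes past the test instead of 4. Shallower libraries outside the 6, down to 6857558 counts in a cKO library in 1% O2, stayed as they were in the fit. The mitochondrial share was 0.346% to 0.458%. The 10 tendon fibroblast markers, among them *Scx* and *Tnmd*, all passed the filter on low counts, with a summed level of 12683 to 15639 CPM in Ctrl and 10457 to 15292 CPM in gesicle libraries. Of 15 macrophage and leukocyte markers 6 passed the filter, with a summed level of 20.9 to 28.8 CPM in Ctrl and 22.9 to 36.04 CPM in gesicle libraries. None of the 6 passed the test, and their log2 differences ran from -0.05 to 3.23. Of the 6, 5 were above 0, beside 51.1% of genes tested. In 1 of the 6 (16.7%) all gesicle libraries lay above all Ctrl libraries, beside 6.88% of genes tested. *Ptprc*, the gene of the pan-leukocyte antigen CD45, had 0, 0 and 1 counts in Ctrl and 0, 2 and 1 counts in gesicle libraries. In bulk RNA, fewer cells of a type and less RNA per cell cannot be told apart.

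The targeted gene did not pass the test. *Hif1a*, the oxygen-regulated subunit of HIF-1, was at 335, 339.6 and 371 CPM in Ctrl and 347, 341 and 397 CPM in gesicle libraries, where CPM is the gene's count relative to the TMM-scaled library total. The groups overlapped, with 0.06 ± 0.14 (log2 difference ± SE, adjusted p = 1.0 by edgeR), and the sign turned (-0.017) without gesicle library 3. Counts are per gene, so a transcript that lacks a deleted exon is still counted, and the level does not measure whether an allele was cut. Of the 4 transgene sequences in the table, *cre*, *egfp* and *mcherry* had 0 counts in all 6 libraries, which allows up to 3 counts in each.

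None of the 30 HIF target genes passed in either direction, beside 4 (0.0247%) of all 16174 genes tested. A list without a call is therefore near the share over all genes. The median log2 difference of the HIF targets was -0.05, beside 0.01 over all genes tested. *Vegfa*, an angiogenic growth factor gene, was at 119, 95.8 and 169 CPM in Ctrl and 82.6, 77.2 and 112 CPM in gesicle libraries. Each gesicle library was below the Ctrl library of its number but the groups overlapped, with -0.50 ± 0.22 (log2 difference ± SE, adjusted p = 1.0 by edgeR). *Ankrd37*, an ankyrin-repeat gene, was at 0.912, 1.42 and 2.71 CPM against 0.881, 0.928 and 0.631 CPM, which also overlapped. In 2 of the 30 targets (6.67%) all gesicle libraries lay below all Ctrl libraries, a share near the 5.63% of genes tested. Chosen after their values were seen, these were *Car9*, a carbonic anhydrase gene, at 0.536, 0.472 and 0.517 CPM against 0.255, 0.204 and 0.414 CPM, and *Slc16a3*, a lactate exporter gene, at 1.93, 1.71 and 1.73 CPM against 1.39, 1.11 and 1.302 CPM.

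Of the 9 HIF subunits and oxygen sensors tested, none passed. *Hif1an*, the hydroxylase that blocks HIF transactivation, was at 67.5, 70.1 and 75.97 CPM in Ctrl and 28.4, 53.4 and 66.9 CPM in gesicle libraries. Its groups did not overlap, with -0.52 ± 0.40 (log2 difference ± SE, adjusted p = 1.0 by edgeR). The 18 glycolytic enzymes, many of them HIF-1 targets, had a median of 0.04 and none passed.

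**Figure D1:**
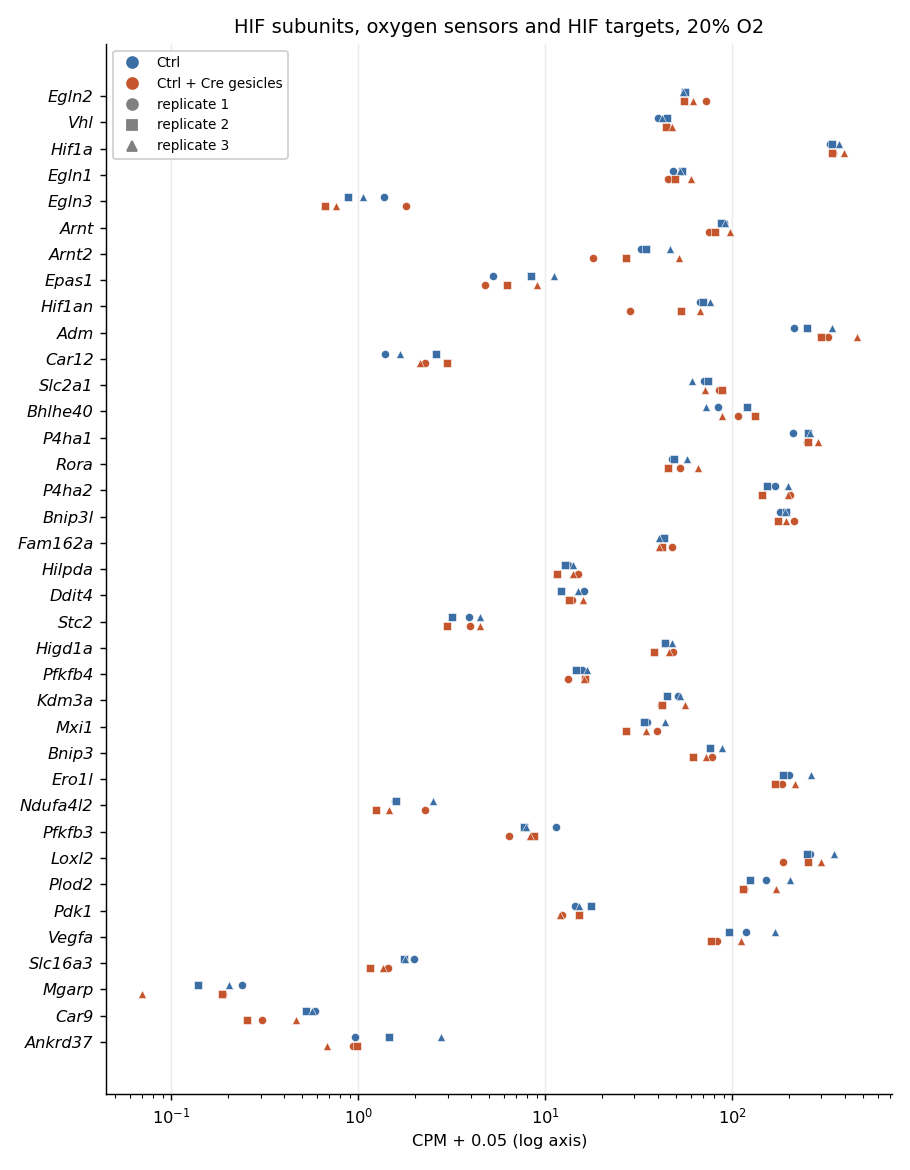
CPM + 0.05 (log axis) of HIF subunits, oxygen sensors and HIF target genes in 20% O2, with 1 point per library, colour for treatment and shape for replicate. Points of both groups overlap for most genes, *Hif1a* among them.

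The genes that passed the test all served class I antigen presentation. Across 16174 genes, 4 (0.0247%) had a Benjamini-Hochberg adjusted p below 0.05 together with a 1.5-fold difference, all higher with gesicles, and each belongs to the list of 16 class I genes. They were the heavy chain genes *H2-K1* (chr17:33996017-34000347, - strand, GRCm38) and *H2-D1* (chr17:35262730-35267499, + strand), the tapasin gene *Tapbp* (chr17:33915899-33929292, + strand) and the peptide transporter subunit gene *Tap2* (chr17:34203527-34216321, + strand). Heavy chain genes are near copies of each other, so how their reads were shared out is uncertain. With the replicate number as a block, *H2-K1* and *H2-D1* passed (2 genes, 0.0124%). DESeq2 called 46 genes (0.284%), 10 of the 16 class I genes among them, and 74 (0.458%) with the block.

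*H2-K1* was at 67.2, 90.6 and 59.4 CPM in Ctrl and 149, 216 and 164 CPM in gesicle libraries. All gesicle libraries were above all Ctrl libraries, at 2.21, 2.39 and 2.76 times the Ctrl library of the same number. It rose by 1.28 ± 0.19 (log2 difference ± SE, adjusted p = 0.032 by edgeR), with a blocked adjusted p of 0.0488.

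*H2-D1* was at 258, 327 and 249 CPM in Ctrl and 557, 695 and 598 CPM in gesicle libraries. The groups again lay apart, at 2.15, 2.12 and 2.398 times the Ctrl library of the same number. It rose by 1.15 ± 0.17 (log2 difference ± SE, adjusted p = 0.032 by edgeR), with a blocked adjusted p of 0.0488.

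*Tapbp* was at 168, 203 and 171 CPM in Ctrl and 305, 359.5 and 337 CPM in gesicle libraries and did not overlap between groups. It rose by 0.89 ± 0.12 (log2 difference ± SE, adjusted p = 0.0307 by edgeR), and its blocked adjusted p was 0.0634. *Tap2*, at 48.3, 51.03 and 39.98 CPM against 79.2, 88.01 and 72.04 CPM, did not overlap either. It rose by 0.78 ± 0.12 (log2 difference ± SE, adjusted p = 0.039 by edgeR), and its blocked adjusted p was 0.126. These calls depended on single libraries: 0 genes passed without Ctrl library 1, Ctrl library 3, gesicle library 2 or gesicle library 3, and 2 genes, *Tapbp* and *H2-K1*, passed without Ctrl library 2 or gesicle library 1.

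Other class I genes had higher values without passing in edgeR. *B2m*, the shared light chain gene, was at 341, 379.7 and 343 CPM in Ctrl and 887, 1031 and 1033 CPM in gesicle libraries, with 1.47 ± 0.25 (log2 difference ± SE, adjusted p = 0.0853 by edgeR). *H2-T23*, a non-classical heavy chain gene, was at 26.4, 37.9 and 24.98 CPM against 69.9, 88.3 and 102 CPM, with 1.54 ± 0.29 (log2 difference ± SE, adjusted p = 0.125 by edgeR). All gesicle libraries of both genes were above all Ctrl libraries. The immunoproteasome subunit genes *Psmb8* and *Psmb10* were at 8.74, 10.4 and 3.44 CPM against 30.9, 35.7 and 34.1 CPM and at 13.8, 16.7 and 11.2 CPM against 36.5, 40.4 and 36.2 CPM. *Tap1*, coding for the partner of TAP2, was at 41.1, 49.7 and 29.4 CPM against 80.4, 117 and 74.8 CPM, and *Erap1*, whose product trims peptides, at 31.1, 36.03 and 28.7 CPM against 45.4, 63.8 and 67.03 CPM. None of these overlapped between groups.

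All gesicle libraries lay above all Ctrl libraries for 12 of the 16 class I genes, beside 6.88% of genes tested, and the median log2 difference was 1.23. The general chaperone genes *Pdia3*, *Calr* and *Canx* had log2 differences of 0.09, 0.02 and 0.01, and their groups overlapped. *Nlrc5*, a transactivator of class I genes, was at 2.79, 4.19 and 0.122 CPM against 3.11, 17.6 and 6.17 CPM and overlapped as well. Summed over the list, the level was 5121, 5362 and 5092 CPM in Ctrl and 6512, 7139 and 6679.5 CPM in gesicle libraries.

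**Figure D2:**
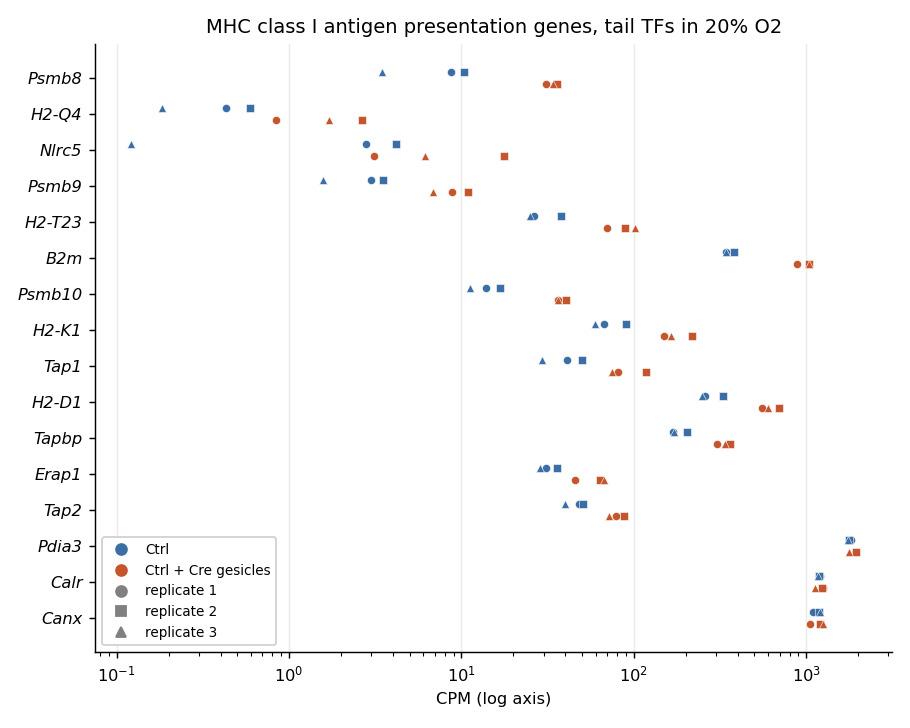
CPM (log axis) of 16 class I antigen presentation genes in 20% O2, with 1 point per library, ordered by log2 difference. All gesicle points lie right of all Ctrl points in 12 rows, and the groups overlap for *Nlrc5*, *Pdia3*, *Calr* and *Canx*.

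Interferon-stimulated genes had higher differences and a wide spread. None of the 36 passed in edgeR, whereas 23 had an unadjusted p below 0.05 and were 1.5-fold higher, beside 1.42% of genes tested, and none were 1.5-fold lower on that rule, beside 0.995%. All gesicle libraries lay above all Ctrl libraries for 28 of 36, beside 6.88% of genes tested, and the median log2 difference was 2.39. DESeq2 called *Lgals3bp* and *Gbp2*. *Lgals3bp*, a secreted glycoprotein gene, was at 160.1, 251 and 123 CPM in Ctrl and 714, 877 and 939.99 CPM in gesicle libraries, with 2.25 ± 0.39 (log2 difference ± SE, adjusted p = 0.0853 by edgeR). *Gbp2*, an interferon-induced GTPase gene, was at 28.5, 38.7 and 15.4 CPM against 88.8, 146 and 77.2 CPM, with 1.92 ± 0.44 (log2 difference ± SE, adjusted p = 0.301 by edgeR).

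*Isg15*, whose product is a ubiquitin-like modifier and whose promoter is shown above, was at 15.9, 24.9 and 0.6998 CPM in Ctrl and 85.4, 168 and 158 CPM in gesicle libraries. *Bst2*, the gene of the virus tether tetherin, was at 18.6, 26.7 and 5.93 CPM against 148, 212 and 265 CPM. *Ifit3*, coding for an antiviral protein, was at 265, 480.1 and 95.6 CPM against 1039, 1753 and 1452 CPM. All 3 had groups that did not overlap, and Ctrl library 3 was the lowest. Their adjusted p in edgeR was 1.0, 0.554 and 0.862.

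Ctrl libraries differed among themselves. Ctrl library 3 was the lowest and Ctrl library 2 the highest of the 3 in 36 of 36 interferon-stimulated genes. The summed level was 1632, 2508 and 708 CPM in Ctrl and 5397, 8735 and 6858 CPM in gesicle libraries. Each gesicle library exceeded the Ctrl library of its number in 35 of 36 genes. For *Isg15* the ratio within a number was 5.36, 6.76 and 225. The transcription factor gene *Irf7* was at 39.4, 52.4 and 5.02 CPM against 151, 229.8 and 199 CPM, with the same order among Ctrl libraries. The gene with a log2 difference below 0 was *Ifi27*, at 138, 158 and 124 CPM against 199, 121 and 88.6 CPM.

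**Figure D3:**
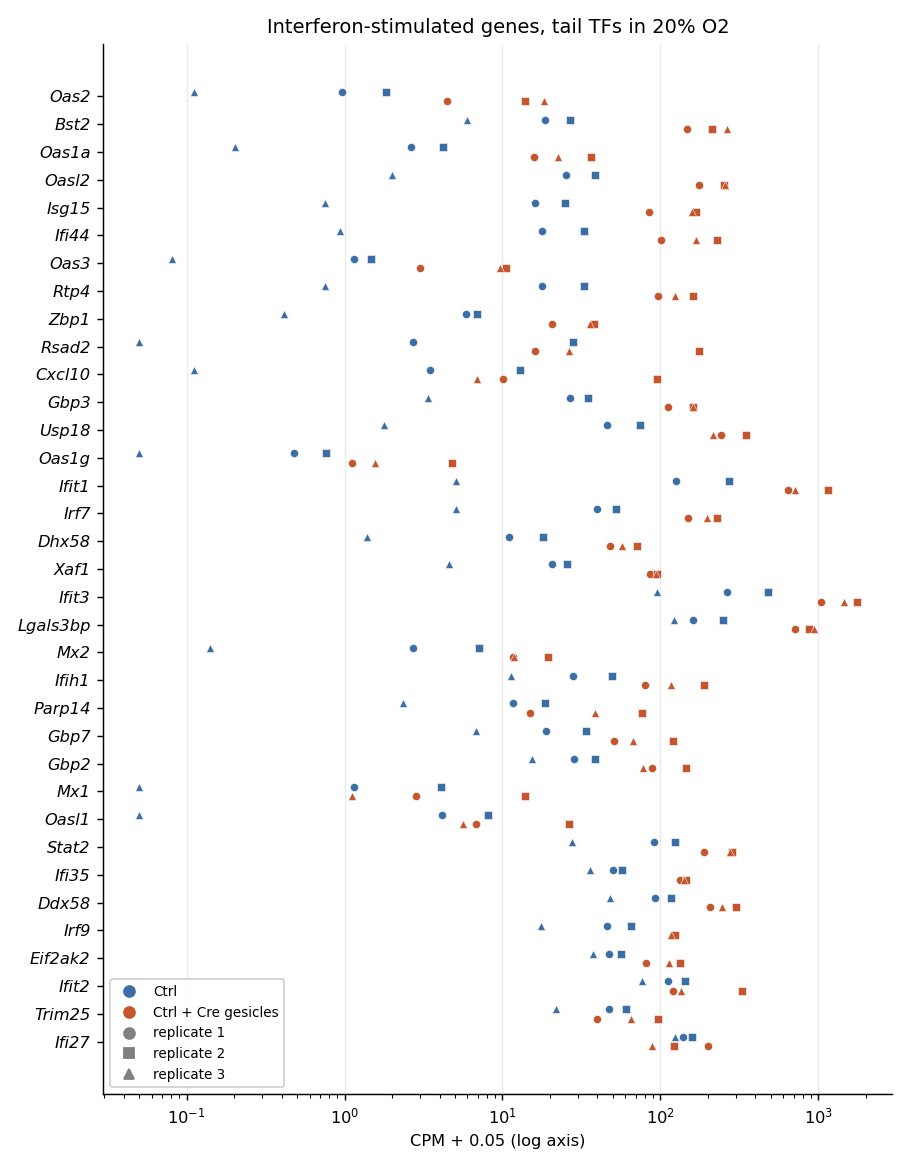
CPM + 0.05 (log axis) of interferon-stimulated genes in 20% O2, with 1 point per library, ordered by log2 difference. Ctrl replicate 3 is the lowest Ctrl point in every row shown, and all gesicle points lie right of all Ctrl points in most rows.

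Interferon genes, chosen after their values were seen, had few counts. *Ifnb1*, coding for interferon beta, had 1, 10 and 0 counts in Ctrl and 2, 31 and 19 counts in gesicle libraries. *Ifng* had 0 counts in all 6 libraries. The interferon receptor gene *Ifnar1* was at 87.3, 94.9 and 86.7 CPM against 76.99, 89.96 and 84.9 CPM, and the groups overlapped. *Socs1*, a feedback inhibitor gene of the pathway, was at 5.12, 5.79 and 3.41 CPM against 9.13, 13.6 and 6.96 CPM, with 1.05 ± 0.25 (log2 difference ± SE, adjusted p = 0.342 by edgeR), and did not overlap.

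None of the 12 nucleic acid sensor genes tested passed, at a median of 0.38. All 12 had a log2 difference above 0, up to 2.85 in *Zbp1*, beside 51.1% of genes tested. In 7 of the 12 (58.3%) all gesicle libraries lay above all Ctrl libraries, beside 6.88% of genes tested. *Tlr3*, a receptor gene for double-stranded RNA, was at 12.95, 22.4 and 8.06 CPM in Ctrl and 24.6, 65.1 and 28.6 CPM in gesicle libraries, with 1.45 ± 0.43 (log2 difference ± SE, adjusted p = 0.695 by edgeR). *Myd88*, a Toll-like receptor adaptor gene, was at 39.2, 38.8 and 31.8 CPM against 51.01, 64.6 and 41.6 CPM, with 0.52 ± 0.15 (log2 difference ± SE, adjusted p = 0.712 by edgeR). Neither overlapped between groups. *Mavs*, an adaptor gene of RNA helicase sensors, was at 51.5, 58.4 and 56.3 CPM against 59.2, 53.3 and 54.8 CPM and overlapped.

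None of the 17 cytokine and chemokine genes tested passed, at a median of 0.53, and 6 lay wholly above Ctrl, beside 6.88% of genes tested. *Ccl2* and *Ccl7*, monocyte chemoattractant genes, were at 65.96, 91.7 and 50.6 CPM against 129, 197 and 155 CPM and at 155, 137 and 121 CPM against 273, 255 and 239 CPM. Neither overlapped, with 1.21 ± 0.43 (log2 difference ± SE, adjusted p = 1.0 by edgeR) and 0.89 ± 0.33 (log2 difference ± SE, adjusted p = 1.0 by edgeR). *Tnf* and *Il1b* had too few counts to be tested. The 14 NF-kB feedback genes had a median of 0.14 and none passed.

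None of the 22 caspase and BCL2 family genes passed, at a median of 0.13. Of the 22, 18 had a log2 difference above 0, beside 51.1% of genes tested. In 6 (27.3%) all gesicle libraries lay above all Ctrl libraries, beside 6.88% of genes tested. *Casp12*, an inflammatory caspase gene, was at 29.3, 37.4 and 35.5 CPM in Ctrl and 48.5, 58.2 and 66.03 CPM in gesicle libraries, with 0.76 ± 0.18 (log2 difference ± SE, adjusted p = 0.355 by edgeR), and did not overlap. *Mlkl*, the necroptosis executor gene, chosen after its values were seen, was at 58.5, 66.1 and 52.9 CPM against 95.3, 109 and 97.4 CPM, with 0.76 ± 0.14 (log2 difference ± SE, adjusted p = 0.111 by edgeR). DESeq2 gave it an adjusted p of 0.000352.

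Of 34 cell cycle and DNA replication genes, 32 had a log2 difference above 0, beside 51.1% of genes tested, at a median of 0.53. None passed, and 2 did not overlap, a share near the 6.88% of genes tested. The median was 0.79 without Ctrl library 2, 0.28 without Ctrl library 3, 0.21 without gesicle library 2 and 0.77 without gesicle library 3. Chosen after their values were seen, those without overlap were *Cdc6* and *Mcm5*, replication licensing genes, at 4.42, 5.79 and 2.34 CPM against 6.56, 9.42 and 6.27 CPM and at 18.6, 21.5 and 11.04 CPM against 24.03, 39.3 and 22.6 CPM. *Tyms*, the thymidylate synthase gene, was at 12.1, 14.6 and 9.89 CPM against 19.2, 20.7 and 13.7 CPM and overlapped.

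None of the 28 tenogenic and tendon matrix genes tested passed, at a median of 0.03 that ran from -0.071 to 0.072 over the alternatives. *Col12a1*, a fibril-associated collagen gene, was at 477, 159 and 343 CPM in Ctrl and 160.4, 109.9 and 188 CPM in gesicle libraries, with -1.10 ± 0.34 (log2 difference ± SE, adjusted p = 0.784 by edgeR). Its groups overlapped. *Lum*, the small proteoglycan gene lumican, was at 1.02, 1.42 and 1.004 CPM against 1.51, 3.67 and 2.58 CPM, with 1.17 ± 0.54 (log2 difference ± SE, adjusted p = 1.0 by edgeR), and did not overlap. The remaining lists had 0 calls. Medians were 0.04 for p53 targets, -0.04 for unfolded protein and ATF4 genes, -0.02 for NRF2 targets and 0.07 for endosome and lysosome genes. They were 0.14 for cholesterol genes, 0.05 for matrix crosslinking, 0.05 for immediate early genes, -0.13 for BMP and TGF-beta genes and -0.19 for contractile genes. Sex-linked genes had a median of -0.29. Among cell type markers, medians ran from -0.42 for pericyte and smooth muscle to 0.13 for macrophage and leukocyte markers. All 8 pericyte and smooth muscle markers tested had a log2 difference below 0, beside 7908 of 16174 genes tested. In 0 of the 8 did all gesicle libraries lie below all Ctrl libraries.

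**Figure D4:**
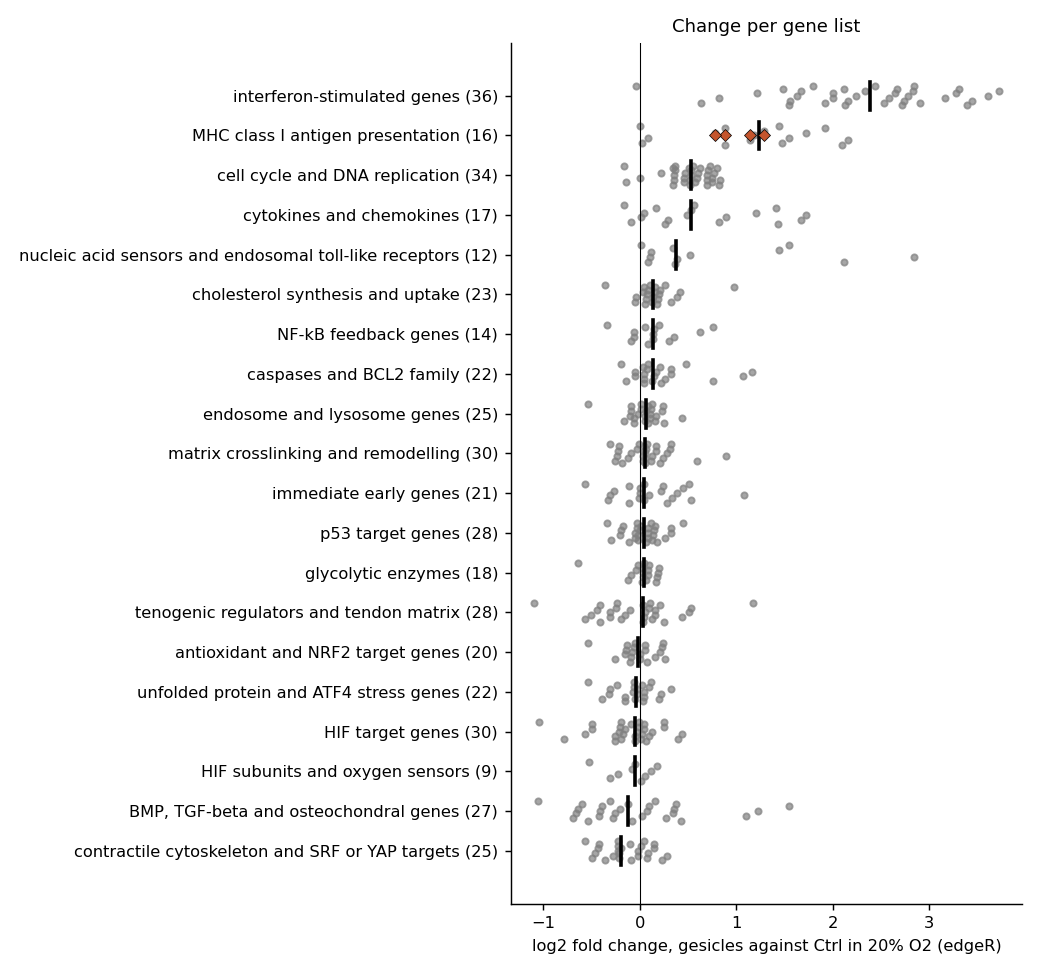
Log2 difference (edgeR) of every tested member of each gene list in 20% O2, as points. Cell type marker lists and sex-linked genes are not shown. Bars are list medians and diamonds are genes that passed the test. The 4 diamonds lie in the class I list, and medians of the lists shown run from -0.19 to 2.39.

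No gene was called lower by edgeR, while 161 (0.995%) had an unadjusted p below 0.05 and were 1.5-fold lower, and DESeq2 called 5 (0.0309%). *Neat1*, a nuclear noncoding RNA chosen after its values were seen, was at 322, 351 and 432 CPM in Ctrl and 197, 231 and 227 CPM in gesicle libraries, with -0.75 ± 0.19 (log2 difference ± SE, adjusted p = 0.42 by edgeR). Its groups did not overlap.

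In 1% O2 the same treatment gave 0 calls in edgeR and 0 in DESeq2, and 9 (0.0556%) in DESeq2 with the block. At an unadjusted p below 0.05, 126 genes (0.779%) were 1.5-fold higher and 109 (0.674%) lower. The median was 1.82 for interferon-stimulated and 0.55 for class I genes. All gesicle libraries lay above all Ctrl libraries for 7 of 16 class I genes, beside 2.97% of genes tested, and for 1 of 36 interferon-stimulated genes. They lay below for 15 of 30 HIF targets, beside 3.35%, at a median of -0.30. *H2-K1* was at 75.01, 98.6 and 78.98 CPM without and 143, 99.8 and 116 CPM with gesicles in 1% O2.

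In interferon-stimulated genes, gesicle library 2 in 1% O2 lay among the Ctrl libraries. It exceeded the Ctrl library of its number in 1 of 36, against 36 and 35 for libraries 1 and 3. In class I genes it was above the highest Ctrl library of 1% O2 in 9 of 16, against 14 and 13 for libraries 1 and 3. *Isg15* was at 0.138, 7.002 and 0.233 CPM without and 77.2, 0.776 and 47.2 CPM with gesicles in 1% O2. The difference of the gesicle effect between 20% and 1% O2, tested as an interaction, gave 0 calls in edgeR (1.5% at an unadjusted p below 0.05), 0 in DESeq2 and 3 (0.0185%) in DESeq2 with the block. Without that library it gave 0 in edgeR as well.

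**Figure D5:**
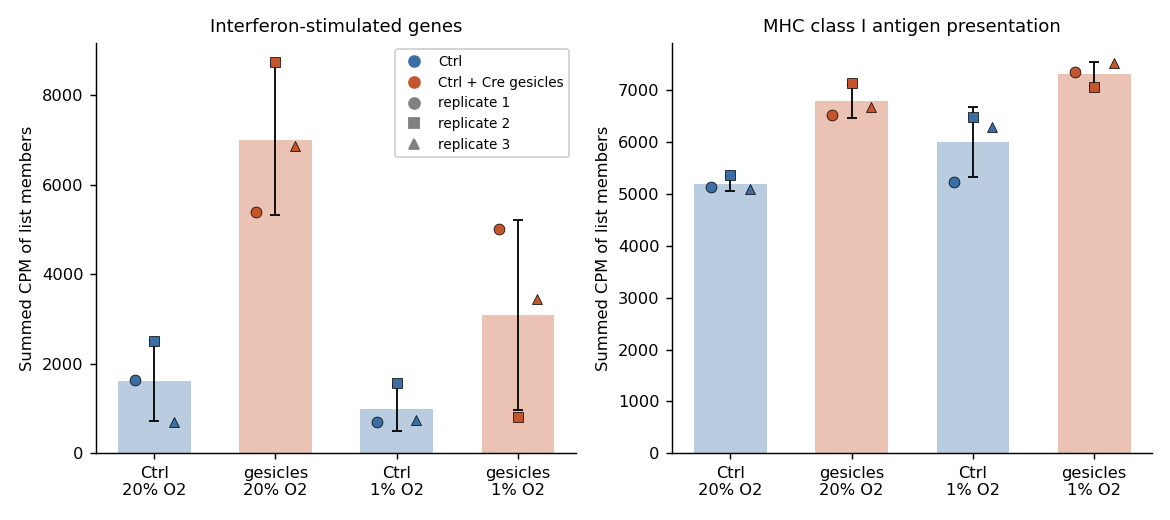
Summed CPM of 36 interferon-stimulated genes (left) and 16 class I genes (right) in the 4 Ctrl groups, with means as bars from 0, SD as error bars (n = 3) and libraries as points. On the left, gesicle libraries in 20% O2 lie above all Ctrl libraries, while gesicle replicate 2 in 1% O2 lies among them.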

How the data were processed

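Poly-A RNA of 18 cultures of tail TFs was sequenced, and 6 libraries (3 per group) form the comparison. The authors deposited expected counts per gene, made with RSEM 1.3.3 on GRCm38 after trimming and STAR alignment, as whole numbers without normalization. FastQC 0.11.8 and MultiQC 1.20 are also named in the submitters' processing notes. The table has 55491 rows, 4 of them transgenes. No pair of the 6 libraries agreed within sampling noise.

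The filterByExpr function kept 16174 genes. All 18 libraries, as 6 groups, entered the quasi-likelihood fit of edgeR 4.0.16 with TMM factors. Genes passed when the Benjamini-Hochberg value was below 0.05 and the fold 1.5 or more. SE was derived from the F statistic. The methods give 3 mice per genotype for TF cultures but do not describe the gesicle libraries, and the labels tie no library to a mouse, so p-values measure the spread between these libraries. Deviations from group means correlated within a replicate number (r = 0.331, 0.431 and 0.384) and not across numbers (-0.281 to -0.0864). The Y-linked gene *Ddx3y* had 6736 counts in Ctrl replicate 1 and 7293 in gesicle replicate 1, and 0 to 6 in the others. The numbers were therefore taken to pair the libraries. The main fit held no block for this pairing, and the blocked value is given where it changed a call. A floor of 3 counts, 0.0579 to 0.0921 CPM, covers counting error only.

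The comparison, its members and the gene lists were chosen with earlier results of these data known. The rule for naming picked *Hif1a*, the transgenes, called genes and, in lists without one, the 2 members with the smallest p. Not all of these are reported, *Laptm5*, *Rgs5*, *Bcl3* and *Myc* being among those left out. Further members illustrate a list and were chosen after their values were seen. Alternatives were RLE factors, other count filters, the replicate block, DESeq2 1.42.0, thinning, voom weights (limma 3.58.1), GC and length offsets (GENCODE M21, 99.87% of genes), single libraries left out, the 6 libraries alone, unadjusted p, no fold minimum, a test against 1.5-fold and an *Xist* covariate. Leaving out 1% O2 libraries was added after seeing the data. Promoter windows (250 bases before to 50 after the start) are RefSeq's. Steps were tested on simulated data. An item of the interferon-stimulated list is counted but not reported here by name.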

Additional observations from a re-analysis of the deposited data

Results flagged for a closer look

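The *tdtomato* sequence, which no comparison used, had 3 counts over the 3 gesicle libraries in 20% O2 and 5 over those in 1% O2, and 0 in the other 12 libraries. Its source was not tested.

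The gesicle effect on *Agtr2*, an angiotensin receptor gene, differed between 20% and 1% O2 by 2.86 on the log2 scale in DESeq2 with the replicate block, and did not pass in edgeR. Its level was 0.322, 2.599 and 0.608 CPM in Ctrl and 0.927, 3.83 and 2.604 CPM in gesicle libraries in 20% O2, and 1.19, 1.94 and 1.32 CPM without and 0.377, 1.04 and 0.301 CPM with gesicles in 1% O2. That fit also called *Chad* and *Gm47204*, which had over 3 counts in 4 and 2 of 12 libraries and are given no fold. In *Gpi1*, a glycolytic enzyme gene, every gesicle library was above the Ctrl library of its number in 20% O2 and below it in 1% O2, a log2 difference of 0.52. In *Acta1*, the skeletal alpha-actin gene, every gesicle library was below in 20% O2 and above in 1% O2, a log2 difference of -0.89. These were 2 of 104 named genes tested, and neither passed the edgeR interaction test. Such opposite pairs were seen in 698 of all 16174 genes (4.32%). They were seen in 4 of 18 glycolytic enzymes, where *Pgk1*, *Eno1* and *Pkm* join *Gpi1*, and in 14 of 34 cell cycle genes.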

How the results depend on the processing

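The number of genes that passed for gesicles against Ctrl in 20% O2 was 4. It was 2 with the replicate block, 23 without a filter on low counts, 46 with DESeq2, 74 with DESeq2 and the replicate block, 11 with voom and quality weights, 1 in the 6 libraries alone, 12 in those with the replicate block, 390 at unadjusted p, 0 against a fold change of 1.5, 0 with *Xist* as a covariate, and 0 to 2 with 1 library left out. The other alternatives gave 3 or 4. In the lists, 4 genes passed, 9 without a filter, 2 with the replicate block, 12 with DESeq2 (15 with the replicate block), 1 in the 6 libraries alone (9 with the replicate block) and 0 to 2 with 1 library left out. The interaction with O2 level had 0 calls except for 3 with DESeq2 and the replicate block. *Hif1a* did not pass under any alternative, and its log2 fold change ran from -0.017 without gesicle library 3, where its sign turned, to 0.10. In the edgeR fit of all 18 libraries the replicate block ended the calls of *Tapbp* and *Tap2* and changed no other call of a gene recomputed. Apart from *Hif1a*, none of the 28 genes recomputed changed direction under the alternatives run. List medians ran from 1.93 to 3.17 for interferon-stimulated, 1.01 to 1.41 for class I and 0.21 to 0.79 for cell cycle genes. Those near 0 crossed it, at -0.16 to 0.014 for HIF targets, -0.0019 to 0.13 for glycolytic, -0.00051 to 0.10 for p53 and -0.071 to 0.072 for tendon genes. The cause of these shifts was not tested. Depth in the 6 libraries was 32579711 counts at the least, so genes of a few counts, such as the interferons, could not be compared.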

Other observations

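Further genes were chosen after their values were seen, for their small p, and none passed in edgeR. *Apod*, coding for the lipid carrier apolipoprotein D, was at 12.7, 10.1 and 6.54 CPM in Ctrl and 42.9, 40.8 and 59.7 CPM in gesicle libraries, with 2.29 ± 0.43 (log2 difference ± SE, adjusted p = 0.125 by edgeR). *Vnn1*, the pantetheinase gene, was at 11.4, 8.56 and 10.4 CPM against 19.6, 25.9 and 19.8 CPM, with 1.10 ± 0.20 (log2 difference ± SE, adjusted p = 0.0951 by edgeR). Both had groups that did not overlap and were called by DESeq2.

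Values of 3 complement genes picked in the same way follow, and complement genes as a group were not examined. *Cfb*, coding for factor B of the alternative pathway, was at 3.91, 3.93 and 1.55 CPM in Ctrl and 11.6, 20.2 and 18.4 CPM in gesicle libraries, with 2.41 ± 0.50 (log2 difference ± SE, adjusted p = 0.192 by edgeR). *C2*, of the classical pathway, was at 13.8, 11.7 and 8.76 CPM against 30.9, 19.5 and 23.8 CPM, and *Serping1*, the C1 inhibitor gene, at 26.9, 36.8 and 36.1 CPM against 56.1, 43.8 and 56.3 CPM. All gesicle libraries of the 3 genes were above all Ctrl libraries.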
